A study of Homo sapiens with 10 samples.

Results

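The retinoid clearance genes CYP26A1, CYP26B1, CYP26C1 and DHRS3 were examined for occupancy by the coactivator MAML3 and the retinoic acid receptor RARα in cultured SK-N-SH cells, a long-used line from a human neuroblastoma. Cells had received 1 µM retinoic acid (RA), and their controls vehicle alone (UT). How long the treatment lasted is not stated. Cells of both treatments had spent the 24 hours before it in charcoal-stripped serum. Chromatin immunoprecipitation and sequencing gave 2 libraries for each antibody and treatment, and each library has a deposited peak list. The members were chosen by position, as every peak of these 8 lists inside 3 windows of the hg19 build. The windows were proposed with the peaks of the same lists already known, so presence of a peak in the RA or UT lists is given as a description with no test. The windows were chromosome 2 from 72300000 to 73060000 (CYP26B1 and the EXOC6B side), chromosome 10 from 94720000 to 94940000 (CYP26A1 and CYP26C1) and chromosome 1 from 12500000 to 12780000 (DHRS3). They held 57 of the 26482 peaks in the 8 lists.

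The enzymes encoded by the CYP26 genes are cytochromes P450 that oxidise retinoic acid to products that are cleared from the cell. DHRS3 is a short-chain dehydrogenase that reduces retinaldehyde to retinol and so limits the supply of retinoic acid. In many cell types these genes are induced by retinoic acid itself, through receptors that bind DNA as heterodimers with RXR at direct repeats of a short core motif. RARα is one of these receptors. MAML3 belongs to the mastermind-like family, known as coactivators of Notch signalling.

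Several features of the lists bear on all values. The replicates are not stated to be separate cultures. By the tags in their list names, both MAML3 UT lists carry the same index and may be a single library sequenced on separate lanes, and the list of RARα UT replicate 2 is tagged as merged. List lengths were 7532 and 6230 peaks for MAML3 RA, 2222 and 6759 for MAML3 UT, 1103 and 1064 for RARα RA, and 1321 and 251 for RARα UT. No file used here gives the number of reads behind a list. A short list can miss a bound site, so a site with no listed peak is not shown to be unbound. The score of a peak is the authors' and was compared only within its own list, as a percentile: a percentile of 90 means that 90% of the peaks in that list scored lower.

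Peaks in the windows were mostly those of RA-treated cells. The MAML3 RA lists held 13 and 19 peaks in the 3 windows, against 0 and 4 in the MAML3 UT lists. The RARα RA lists held 9 and 10, against 2 and 0 in the RARα UT lists. Neither antibody's RA and UT counts overlapped. The MAML3 mean was 16 ± 4.24 peaks in RA lists and 2 ± 2.83 in UT lists (SD, n = 2 each), a difference of 14. With all 4 MAML3 lists shortened to their 2222 highest-scoring peaks, the lists held 6 and 12 peaks after RA and 0 and 0 in UT, a difference of 9. The RARα mean was 9.5 ± 0.707 peaks in RA lists and 1 ± 1.41 in UT lists (SD, n = 2 each), a difference of 8.5. The windows were proposed with these peaks known, so the gaps are a description of the lists, and the SD of the MAML3 UT lists may not be one between separate libraries. No p was computed, and 2 libraries against 2 cannot give a two-sided exact permutation p below 0.33.

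**Figure D1:**
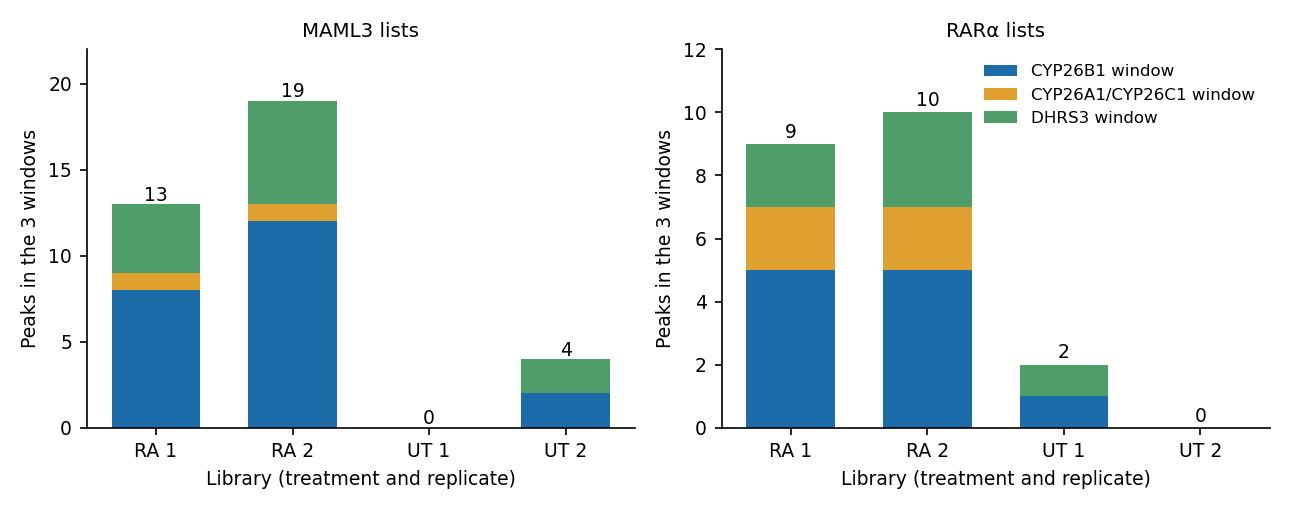
Number of listed peaks (vertical axis) in the 3 windows for each library (horizontal axis), MAML3 lists on the left and RARα lists on the right, coloured by window, with the total above each bar. The RA libraries hold 13 and 19 MAML3 peaks and 9 and 10 RARα peaks, and the UT libraries hold 0 and 4 MAML3 peaks and 2 and 0 RARα peaks.

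As a share of list length, the windows took 0.173% (95% exact interval 0.0919 to 0.295) and 0.305% (0.184 to 0.476) of the MAML3 RA lists. In MAML3 UT replicate 2 the share was 0.0592% (0.0161 to 0.151), and in UT replicate 1 it was 0 of 2222 peaks, with an upper exact limit of 0.166%. By the simpler limit of 3 counts of the total, that 0 allows a share of up to 0.135%. For RARα the share was 0.816% (0.374 to 1.54) and 0.940% (0.452 to 1.72) of the RA lists, against 0.151% (0.0183 to 0.546) of UT replicate 1. The 0 of 251 peaks in RARα UT replicate 2 allows a share of up to 1.20% by the same limit of 3 counts. By the exact interval the limit is 1.46%. Both limits lie above the share of either full RA list, so against those longer lists no difference in share can be shown. With the RARα lists shortened to their 251 highest-scoring peaks, the RA lists held 6 and 6 peaks in the windows. The UT lists then held 0 and 0. These intervals and limits cover counting error only and treat the peaks of a list as independent. The windows were proposed with these peaks known, so overlap or separation of intervals is no test of RA against UT. The interval of MAML3 RA replicate 1 overlapped those of both MAML3 UT lists, while that of MAML3 RA replicate 2 lay above both. Likewise overlapping were those of both RARα RA lists and UT replicate 1.

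Overlapping peaks of an antibody were joined into sites. The windows held 20 MAML3 sites. Of these, 9 were gained, meaning that both RA lists and no UT list had them, against 9.37% of all MAML3 sites. None was lost, the opposite pattern (0.683% of all MAML3 sites), and none was in all 4 MAML3 lists (16.8% of all). Neither pattern could occur here, since MAML3 UT replicate 1 had no peak in the windows. With all 4 MAML3 lists cut to 2222 peaks, the gained count was 6. It was 8 in the highest-scoring 50% of each list, and 8 with windows narrowed by 20 kb. With MAML3 RA replicate 1 left out, the gained count was 15. With presence in at least 1 RA list and in no UT list as the rule, it was 16. The share over all MAML3 sites was not computed under these alternatives, and the 9.37% belongs to the main rule. For RARα the windows held 11 sites. Of these, 6 were gained (5.42% of all RARα sites), none was lost (0.472% of all) and none was in all 4 RARα lists (6.75% of all). Again the last 2 patterns could not occur, since RARα UT replicate 2 had no peak in the windows. Because the windows were proposed with this contrast in view, the counts are not evidence of a treatment effect beyond the lists themselves.

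The score percentiles of the gained sites, like their presence, were known when the windows were proposed. The 9 gained MAML3 sites ranged from 32.7 to 93.9 in mean percentile over the RA lists, with a median of 71.4. The median was 36.2 for all 961 gained MAML3 sites, above the lowest of the 9, and 74.4 for the 1724 sites in all 4 MAML3 lists, averaged there over all 4. The 6 gained RARα sites ranged from 62.5 to 99.6 with a median of 92.0, against 51.3 for all 115 gained sites and 78.8 for the 143 sites in all 4 RARα lists. The RARα site with the highest mean percentile among all 115 gained sites was the one near DHRS3, and ranks 2, 3 and 7 were in the CYP26B1 window.

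The CYP26B1 window held the most sites, 12 for MAML3 and 5 for RARα. It was also the longest, at 760 kb, against 280 kb for DHRS3 and 220 kb for CYP26A1 and CYP26C1. The counts are not scaled to window length. None of the 8 lists had a peak within CYP26B1 itself, taken as 72356000 to 72375000. All its sites lay on the upstream side of the gene, which is on the minus strand, in the direction of its neighbour EXOC6B, a gene for an exocyst subunit. Most of the window lies on that side, from 72375000 to 73060000, and the downstream side spans only 72300000 to 72356000. The nearest MAML3 site below the window, 84.3 kb from its edge, was on the downstream side. The sites held by both MAML3 RA lists numbered 8 and spread over 553 kb, from 72431482 to 72984731. Distances below are from the rounded start side of CYP26B1, and whether a site lies inside EXOC6B was not determined.

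The site nearest to CYP26B1, 56 kb upstream, was gained for both antibodies. RARα covered it from 72431471 to 72432034, at percentiles 99.0 and 98.3 of the RA lists, and neither UT list had it. MAML3 covered it from 72431482 to 72432031, at percentiles 75.7 and 94.0 of the RA lists, again with no UT peak. The nearest UT peak of the same antibody was 490 kb away for RARα and 216 kb away for MAML3. A second gained MAML3 site lay 2.40 kb further on, from 72434432 to 72434981, at percentiles 57.0 and 85.9, and had no RARα peak in any list.

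The site 124 kb upstream was also gained for both antibodies. RARα covered it from 72499067 to 72499584 at percentiles 97.1 and 80.2, and MAML3 from 72499032 to 72499681 at percentiles 79.0 and 98.9, with the RA lists the only ones to hold it. The MAML3 site after it, 138 kb upstream from 72512782 to 72513181, was gained at the lower percentiles of 23.0 and 42.4 and had no RARα peak.

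A pair of shared sites lay 400 and 415 kb upstream. At 400 kb both antibodies gained a site, RARα from 72775085 to 72775684 at percentiles 99.1 and 91.6 and MAML3 from 72775132 to 72775731 at percentiles 89.3 and 98.5. This MAML3 site ranked 6 of the 961 gained sites by mean percentile. At 415 kb, RARα was gained from 72789627 to 72790034, at percentiles 51.8 and 77.1. MAML3 was not gained there by the rule, since UT replicate 2 had a peak at percentile 46.8, against 91.8 and 96.1 in the RA lists. UT replicate 1 had none.

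The most distant RARα site, 547 kb upstream from 72921935 to 72922368, was at percentiles 91.9 and 69.2 of the RA lists and also in UT replicate 1, at percentile 58.2. The MAML3 site there, from 72921882 to 72922331, was gained, at percentiles 35.0 and 79.2. Thus at 415 kb the UT peak was one of MAML3, and at 547 kb it was one of RARα. Beyond it, 609 kb upstream, lay a MAML3 site that was picked out after its values were seen, because it was the only one in the windows whose percentile was higher in a UT list than in the RA lists. It was low in both RA lists, at percentiles 2.93 and 5.15, and at percentile 29.7 in UT replicate 2.

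**Figure D2:**
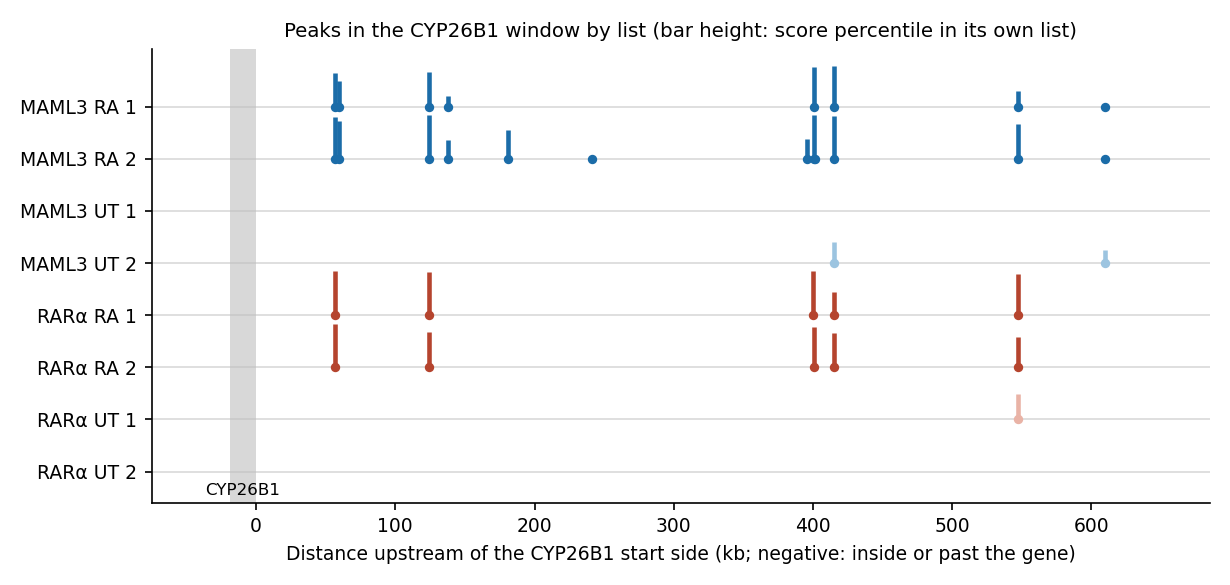
Position of each listed peak in the CYP26B1 window (horizontal axis, kb upstream of the rounded start side of the gene, shown in grey) in each of the 8 lists (vertical axis), with a bar whose height is the score percentile in its own list, a full bar reaching just under the next row. All peaks lie upstream of the gene, the side on which most of the window lies. The 5 RARα positions at 56, 124, 400, 415 and 547 kb fall on MAML3 positions of both RA lists.

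At DHRS3 the sites with the highest percentiles of either antibody lay past the end of the gene. DHRS3 is on the minus strand, and its span was taken as 12628000 to 12678000. The site 93 kb downstream, on the side where RefSeq places VPS13D, was gained for RARα from 12533895 to 12534544. Whether this site lies inside VPS13D was not determined. It was at percentiles 99.6 and 99.6 of the RARα RA lists, with scores of 1137 and 901, and in neither UT list. MAML3 covered it from 12534000 to 12534599 at percentiles 98.5 and 99.3 of the RA lists, with scores of 1526 and 1790. MAML3 UT replicate 2 listed a peak there too, low in its list at percentile 16.5, and UT replicate 1 listed none. The MAML3 site was therefore not counted as gained.

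The second site of this pair lay 89 kb downstream, 3.60 kb from the first for MAML3. MAML3 was gained there from 12538200 to 12538749, at percentiles 81.6 and 92.7. RARα covered it from 12538095 to 12538694 at percentiles 97.7 and 96.0 of the RA lists, and UT replicate 1 held it at percentile 2.08, close to the score minimum of that list. UT replicate 2 did not hold it. A further gained MAML3 site, 113 kb downstream from 12514800 to 12515299, was at percentiles 30.5 and 77.6 and carried no RARα peak.

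Inside DHRS3 the lists held only single peaks. One was a MAML3 peak of RA replicate 2 from 12659000 to 12659249, at percentile 9.07, and the other a RARα peak of RA replicate 2 from 12664540 to 12664694, at percentile 28.1. Neither was repeated in the other RA list, and they did not overlap. Both were picked out after their values were seen, because they were the only peaks of the 8 lists within the spans taken for DHRS3 and CYP26B1. No list had a peak inside CYP26B1, and the hg19 spans of CYP26A1 and CYP26C1 were not used here.

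The CYP26A1 and CYP26C1 window held a single MAML3 site, which was gained. It ran from 94837680 to 94838091 on chromosome 10, at percentiles 64.9 and 74.2 of the RA lists, and the nearest MAML3 UT peak was 624 kb away. RARα was gained at the same place from 94837734 to 94838083, at percentiles 71.7 and 53.4, lower in the lists than the sites 56, 124 and 400 kb from CYP26B1 and the pair near DHRS3. RefSeq lists CYP26C1 and CYP26A1 as direct neighbours. A gene annotation of hg19 was not used here, so the site is given by position and not assigned to either gene.

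Peaks that only a single RARα RA list held lay close by, and were also picked out after their values were seen. RARα RA replicate 1 held one from 94831534 to 94831748, at percentile 50.8, which lay 5.86 kb from the next site. RARα RA replicate 2 held one from 94837608 to 94837674, at percentile 28.2, only 0.059 kb from the gained site. The 4 UT lists of both antibodies had no peak in this window.

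**Figure D3:**
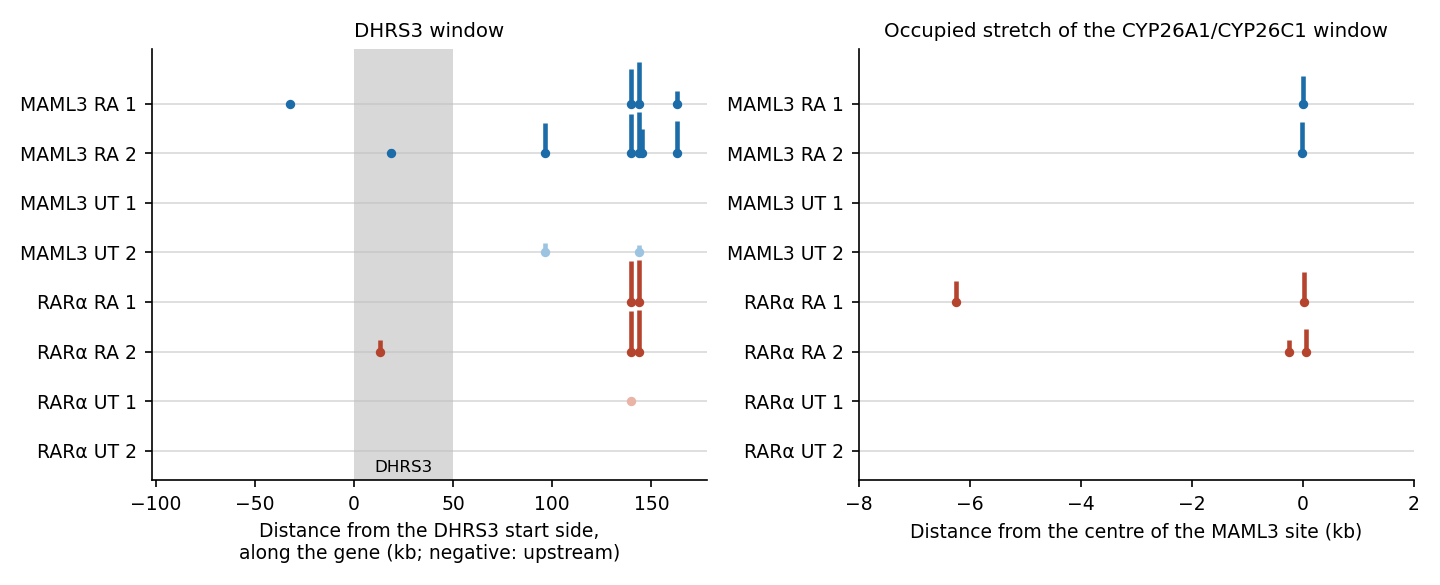
Position of each listed peak (horizontal axis, kb) in each of the 8 lists (vertical axis) for the DHRS3 window (left, distance along the gene from its rounded start side, gene span in grey) and the occupied stretch of the CYP26A1 and CYP26C1 window (right, distance from the centre of the MAML3 site), with bar height as the score percentile in its own list. The pair of sites downstream of DHRS3 carries tall bars in the 4 RA lists and short ones in MAML3 UT 2 and RARα UT 1, and the UT rows of the right panel are empty.

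The promoter of CYP26A1 is shown because it was the only one of the 4 genes' promoters that held a direct repeat of the receptor core motifs AGGTCA or AGTTCA with 5 bases between them. The 4 genes have 7 promoter sequences in RefSeq, 2 for CYP26A1, 1 each for CYP26B1 and CYP26C1, and 3 for DHRS3. Both strands were searched for repeats such as AGTTCANNNNNAGTTCA, with either core motif at each place, so that each repeat also counts as a pair of core motifs. Spacings of 2 and 1 bases were searched too. The sequence below is on the plus strand of GRCh38.p14, another build than that of the peaks, at chr10:93073643-93073942, with the repeat in capitals.

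CYP26A1 promoter: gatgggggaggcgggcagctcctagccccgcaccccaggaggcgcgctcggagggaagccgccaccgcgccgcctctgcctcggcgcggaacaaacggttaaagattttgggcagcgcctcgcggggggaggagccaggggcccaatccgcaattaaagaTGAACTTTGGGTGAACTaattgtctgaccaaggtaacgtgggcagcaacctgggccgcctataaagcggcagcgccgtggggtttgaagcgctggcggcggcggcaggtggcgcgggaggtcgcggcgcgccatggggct

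The repeat starts 90 bases before the annotated transcript start. Read on the opposite strand it is a pair of AGTTCA motifs with 5 bases between them.
CYP26A1 repeat, opposite strand: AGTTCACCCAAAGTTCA
Of the 35116 RefSeq promoters of this length, 7 (0.0199%) held a repeat with this spacing, while 22.6% held at least a single core motif. The other CYP26A1 promoter entry held neither. No member's promoter held a repeat with 2 bases between the core motifs (0.00570% of all promoters) or with 1 base (0.0484%). The word TGGGAA, bound by the Notch factor RBPJ, was in 1 of the 3 DHRS3 promoters and in 24.0% of all promoters. A match is a run of letters and not a measured binding site, and sequences under the peaks were not analysed here. Positions were not converted between the builds, so whether a listed peak covers the repeat was not determined.

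Every RARα site that both RA lists held in the windows, 8 in number, overlapped a MAML3 site of both RA lists. Over the whole genome the share was 81.7%. Seen from MAML3, 6 of the 9 gained sites lay under RARα peaks of both RA lists, against 4.47% of all gained MAML3 sites. Of the 6 gained RARα sites, 4 overlapped a gained MAML3 site, against 17.4% of all gained RARα sites. The windows were proposed with the peaks of both antibodies known, so these shares describe the lists and were not tested. With each list reduced to the 50% of peaks with the highest scores, 7 RARα sites counted as gained and all 7 overlapped a gained MAML3 site. The share of all gained RARα sites was not computed for that cut, and the 17.4% belongs to the full lists. The 4 overlapping sites of the full lists lay 56, 124 and 400 kb upstream of CYP26B1 and in the CYP26A1 and CYP26C1 window. The other 2, at 415 kb from CYP26B1 and 93 kb from DHRS3, overlapped MAML3 sites that UT replicate 2 also held.

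The peak centres of the 2 antibodies lay close together. In the RA libraries, the 32 overlapping pairs of a RARα and a MAML3 peak in the windows had centres 3 to 160 bp apart, with a median of 46.0 bp. These pairs are the 8 shared sites, each counted once for every pairing of a RARα and a MAML3 list, so they are not independent. The median over the 3453 such pairs in the whole RA lists was 46.5 bp, so the windows stood near the genome-wide value. The UT lists had no overlapping pair in the windows, but MAML3 UT replicate 1 and RARα UT replicate 2 had no peak there. Only the 4 peaks of MAML3 UT replicate 2 and the 2 of RARα UT replicate 1 could overlap, and they were at different sites. In the RA lists the closest pair of centres was at the site 56 kb from CYP26B1 and the most distant at the site 124 kb from it.

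**Figure D4:**
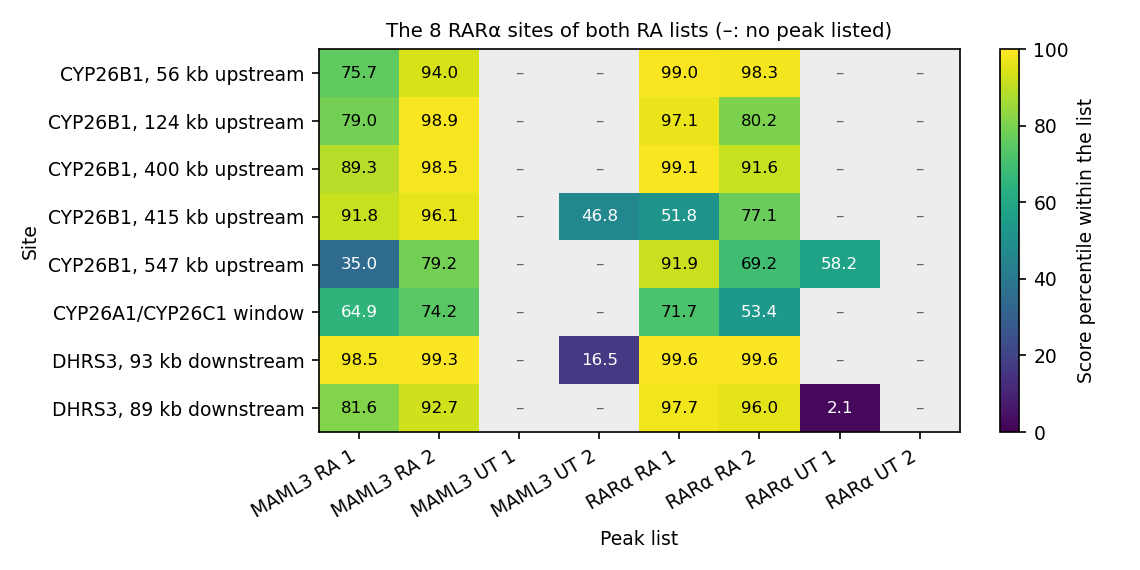
Score percentile within its own list (colour and number) of each of the 8 RARα sites held by both RA lists and of the MAML3 site it overlaps, with sites as rows and the 8 lists as columns. A dash marks no listed peak. All cells of the 4 RA lists are filled, and the filled UT cells are 2 for MAML3 UT 2 and 2 for RARα UT 1.

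The 9 MAML3 sites of the windows that were neither gained nor under a RARα peak were mostly single peaks. Of these, 7 were in 1 list, 6 of them in RA replicate 2 and 1 in RA replicate 1, at percentiles from 0.875 to 65.6. The remaining 2 were the site 609 kb upstream of CYP26B1 and a site 46 kb downstream of DHRS3, from 12581150 to 12581649, at percentile 71.9 in RA replicate 2 and 22.4 in UT replicate 2. No UT list of either antibody held a site in the windows that every RA list of that antibody lacked.

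The edges of the windows passed close to other sites only at DHRS3. Just inside that edge was the gained MAML3 site from 12514800, 14.8 kb from the edge. Just outside, 5.95 kb beyond it, was a MAML3 site of both RA lists from 12493500 to 12494049, which RARα covered in both RA lists and in UT replicate 1. At the lower edge of the CYP26B1 window the nearest MAML3 site outside was 84.3 kb away, in RA replicate 1 and UT replicate 2. For RARα at that edge the nearest site outside was 362 kb away, and at the other edges no site of either antibody was closer than that.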

How the data were processed

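ChIP-seq peak lists of SK-N-SH cells were used as the authors deposited them, 1 per immunoprecipitated library. BWA 0.5.9, MACS and bedtools are named as tools, and hg19 as the build, per the submitters' processing notes, which state neither their roles nor their order. The 2 inputs were not analysed here. The lists have no header. Their last column was treated as a score that the authors deposited, at least 70 in each list, and was used only to rank peaks within a list.

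Peaks of an antibody that overlapped by at least 1 bp were joined into sites and counted by presence in each list. The joining was tested on simulated data. Groups came from the labels. Python 3.11.15, pandas 2.3.3, scipy 1.17.1 and matplotlib 3.10.9 were used. Starts are counted from 1.

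The members, windows and lists were chosen with earlier results of these data known. Named were the RARα sites in at least 2 lists and the MAML3 sites that were gained, lost, in all 4 lists or under a RARα peak. No genome or annotation of hg19 was used, so motifs under peaks and counts near other retinoid pathway genes, both planned, were not run. Gene spans are the rounded ones given with the windows. Promoter sequences, strands and neighbours are from RefSeq (GRCh38.p14).

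Alternatives were other overlap rules, the highest-scoring 50% of each list, lists cut to equal length, wider and narrower windows, presence in at least 1 list, and each library left out.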

Additional observations from a re-analysis of the deposited data

How the results depend on the processing

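The 7 counts and mean differences were recomputed under the alternatives, which gave 75 values. Of these, 70 stayed within 1.5 times the count or within 1 SD of the mean difference, and 5 moved further. The SD was that of peak counts within a treatment, pooled over RA and UT. No mean difference changed direction, which a count could not do. The 70 include all 11 counts of lost sites for each antibody, each of them 0. No site was lost for either antibody under any alternative, but most alternatives could not give one. MAML3 UT replicate 1 and RARα UT replicate 2 had no peak in the windows. A lost site was possible only with that library left out or with presence in at least 1 list as the rule. With presence in at least 1 list of a treatment, 16 MAML3 sites were gained, and with lists of equal length 6 were. With 1 library left out, gained MAML3 sites numbered 9 to 15, the highest without RA replicate 1. In the highest-scoring 50% of each list, 7 of 7 gained RARα sites overlapped a gained MAML3 site, against 4 of 6 in the full lists. The UT peaks at 3 of these places were below that limit, and no genome-wide share was computed for it. With lists of equal length the mean difference between RA and UT was 9 peaks for MAML3 and 6 for RARα. No test was run, so no fit with a replicate block was made, and no label says that libraries with the same number belong together. Read depth is unknown from the files, and the shortest lists, 2222 peaks for MAML3 and 251 for RARα, both from UT cells, limit every statement on absence.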

Other observations

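The peak names in each list carry running numbers along the chromosomes. In 21 of the 24 combinations of a list and a window, no number was skipped between the nearest listed peaks on either side of the window. In RARα UT replicate 2, 11 numbers were skipped between the listed peaks on either side of the CYP26B1 window, which lay 4511 kb below and 104379 kb above it. In MAML3 RA replicate 2 and in MAML3 UT replicate 1, 1 number was skipped around the CYP26A1 and CYP26C1 window. Over the whole lists the share of skipped numbers was 2.86% and 4.74% in the MAML3 RA lists and 10.7% and 4.05% in the MAML3 UT lists. It was 15.5% and 15.2% in the RARα RA lists and 13.9% and 35.1% in the RARα UT lists, highest in the shortest list. Where the skipped numbers belong was not analysed here.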
